A study of Mus musculus with 6 samples.

Results

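The Ms4a genes encode small tetraspan membrane proteins, and the 8 described here, Ms4a4a, Ms4a4b, Ms4a4c, Ms4a6b, Ms4a6c, Ms4a6d, Ms4a7 and Ms4a8a, are best known from macrophages, monocytes and, for some, T cells. They were taken by symbol from the raw count table after its Ensembl identifiers had been matched to GENCODE M21, and all 8 had a row among the 23508 genes of the table. The table came from RNA sequencing of 6 tumors of 4T1, a transplantable mouse mammary carcinoma that the labels class as triple-negative. In 3 tumors RNA was taken before the first peak of neural activity in the tumor (before peak), and in the other 3 on the day of that peak (with peak). All 6 are labelled as 4T1 tumors, and the labels name no treatment, strain, genotype, tumor age or host, so age at collection and the peak cannot be told apart. Epithelial keratins of the labelled carcinoma were abundant, with Krt8 at 1057 to 1712 CPM and Krt18 at 847 to 1421 CPM over the 6 libraries, where CPM is the count scaled to library size after normalisation by the trimmed mean of M-values (TMM). Total counts were 10591067 to 14549357 per library. Wherever 3 values of a group follow each other, they belong to replicates 1, 2 and 3 in that order.

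In immune cells, Ms4a proteins sit beside receptors and modify their signalling: the founding members are the B cell antigen CD20, encoded by Ms4a1, and the beta chain of the high-affinity IgE receptor, encoded by Ms4a2. Ms4a4a is a surface protein of tissue macrophages that associates with the beta-glucan receptor dectin-1, and the MS4A4A and MS4A6A genes have been linked to the shedding of TREM2 from myeloid cells. Ms4a7 marks macrophages, Ms4a6c and Ms4a6d are monocyte and macrophage genes, Ms4a4b and Ms4a6b are also made by T cells, and Ms4a8a has been described in alternatively activated and tumor-associated macrophages as well as in some epithelia.

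All 8 genes lie in 1 cluster on chromosome 19 (GRCm38, the assembly that mm10 also names), which runs from 10962293 to 11640851 and holds 19 annotated Ms4a genes, 12 of them with a row in the table. On the minus strand are Ms4a8a (ENSMUSG00000024730, 11067471 to 11081102), Ms4a7 (ENSMUSG00000024672, 11321039 to 11336146) and Ms4a6d (ENSMUSG00000024679, 11586604 to 11604849). On the plus strand, in order, are Ms4a4a (ENSMUSG00000101389, 11375523 to 11392790), Ms4a4c (ENSMUSG00000024675, 11404770 to 11427246), Ms4a4b (ENSMUSG00000056290, 11443553 to 11467055), Ms4a6c (ENSMUSG00000079419, 11469366 to 11482192) and Ms4a6b (ENSMUSG00000024677, 11516512 to 11531256).

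Among the members, Ms4a4b with Ms4a4c and the Ms4a6 members with each other are close relatives in sequence. The longest coding sequences of Ms4a4b and Ms4a4c, both of 681 bases, were identical at 91.8% of positions. Those of Ms4a6b and Ms4a6c (735 and 654 bases) were identical at 85.0% of the bases that aligned without a gap, and at 73.7% of the whole alignment. For Ms4a6b and Ms4a6d these values were 80.7% and 79.5%. In the pair of Ms4a4b with Ms4a4c and that of Ms4a6b with Ms4a6c, the 250 bases before the RefSeq start (GRCm38.p6) also aligned with each other. The match covered 174 bases at 83.3% identity for Ms4a6b with Ms4a6c and 132 bases at 88.6% for Ms4a4b with Ms4a4c, the highest alignment scores of 27 pairs of windows from the 7 members that matched the promoter table. The longest ungapped stretch of each is shown 5′ to 3′ because these paralogs, alike in sequence, differed between libraries in the counts given further on. Capitals mark the bases at which the members of a pair differ, 14 of 115 for the first pair and 25 of 115 for the second.
Ms4a4b: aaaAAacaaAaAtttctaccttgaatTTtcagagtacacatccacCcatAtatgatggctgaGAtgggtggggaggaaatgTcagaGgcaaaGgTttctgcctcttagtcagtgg
Ms4a4c: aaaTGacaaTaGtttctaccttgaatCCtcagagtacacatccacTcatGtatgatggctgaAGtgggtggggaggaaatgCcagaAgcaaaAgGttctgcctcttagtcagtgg
Ms4a6b: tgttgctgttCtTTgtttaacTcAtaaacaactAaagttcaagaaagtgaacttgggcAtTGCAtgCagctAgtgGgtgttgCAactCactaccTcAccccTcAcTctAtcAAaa
Ms4a6c: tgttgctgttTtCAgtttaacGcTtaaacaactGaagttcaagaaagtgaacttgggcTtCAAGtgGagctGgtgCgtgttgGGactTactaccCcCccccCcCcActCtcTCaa
These stretches lie on the plus strand at chr19:11443422-11443536, chr19:11407528-11407642, chr19:11518311-11518425 and chr19:11469193-11469307, in the order shown. The RefSeq starts of these genes all lie inside the GENCODE spans given above. Of the 250 bases of each window, 106 for Ms4a6b, 5 for Ms4a4b and 2 for Ms4a6c are GENCODE exon, none of them in the stretches shown.

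The member with the largest difference between groups, Ms4a8a, has a start window that aligned with no other member's at a comparable score. The same held for Ms4a4a and Ms4a7, and Ms4a6d had no window. The 250 bases before the start of Ms4a8a (chr19:11081104-11081353, minus strand) are printed with a match to the AP-1 motif in capitals.
Ms4a8a: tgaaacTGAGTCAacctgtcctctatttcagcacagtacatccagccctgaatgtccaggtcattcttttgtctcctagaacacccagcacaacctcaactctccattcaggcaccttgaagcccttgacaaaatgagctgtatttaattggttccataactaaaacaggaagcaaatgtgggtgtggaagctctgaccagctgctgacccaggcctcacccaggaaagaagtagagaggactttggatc
Each window was searched on both strands for TGACTCA (AP-1), AGAGGAAGT (the myeloid factor PU.1) and a GAAA repeat with any 2 bases between its copies (interferon response). The AP-1 match of Ms4a8a begins 244 bases before the start, and 4.46% of 32817 mouse start windows of this length hold that motif. That share is for 1 motif in 1 window. With 3 motifs searched in the windows of 7 members, a match somewhere is likelier than that. Any role of the match was not tested. The windows of the other 6 members in the promoter table held none of the 3 motifs, which 0.798% (PU.1) and 2.97% (interferon response) of all windows hold.

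Ms4a8a was the member that stood out. It had 19, 40 and 22 counts before the peak and 168, 131 and 78 counts with it. Scaled to library size these were 1.52, 3.13 and 1.83 CPM before the peak and 11.8, 10.2 and 7.55 CPM with it, so every with-peak tumor lay above every before-peak tumor. The means were 2.16 ± 0.851 and 9.85 ± 2.13 CPM (SD, n = 3 in each group), a log2 fold change of 2.19 (SE 0.35). The edgeR quasi-likelihood test over 16755 genes gave an adjusted p of 0.0976, which does not pass the threshold of 0.05, while DESeq2 gave an adjusted p of 1.56e-05 and the edgeR fit with no filter on low counts one of 0.0421. Ranked by edgeR p-value it was gene 20 of 16755.

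**Figure D1:**
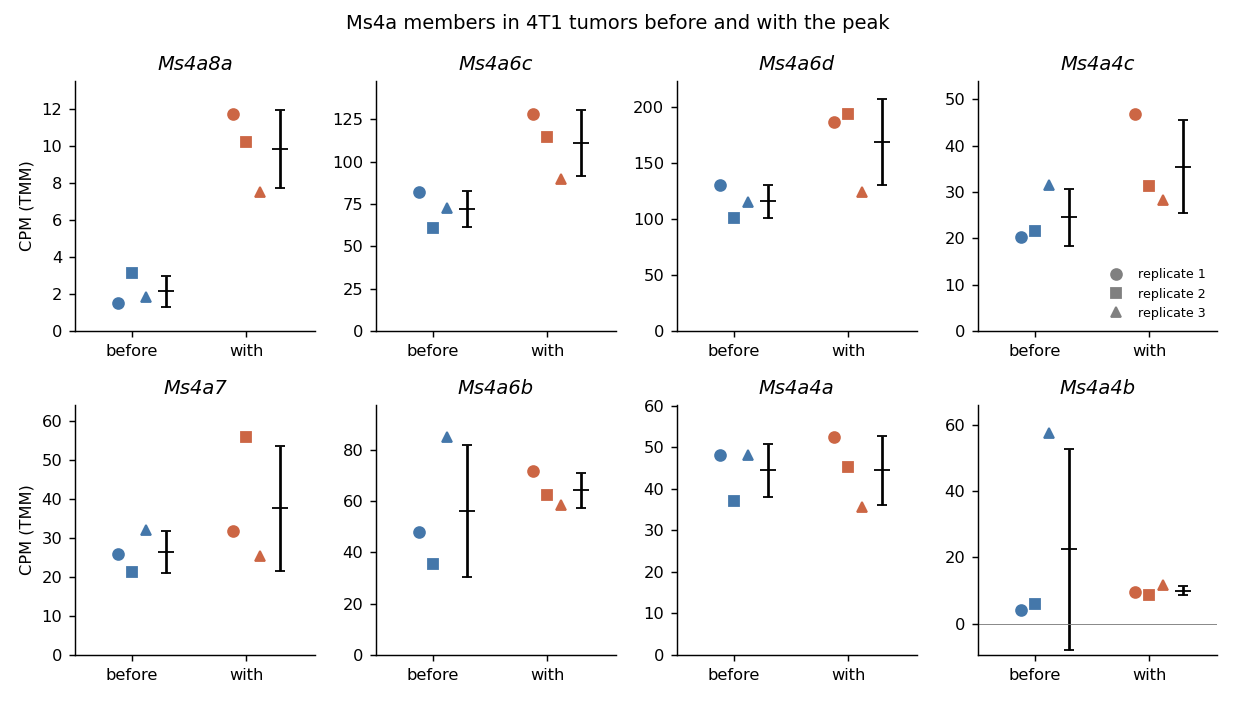
CPM of the 8 Ms4a members (1 panel each, linear axis) in before-peak (blue) and with-peak (orange) tumors; symbols give the replicate and the black bar the group mean ± SD, which for Ms4a4b reaches below 0. The groups are apart for Ms4a8a, at 1.52 to 3.13 and 7.55 to 11.8 CPM, and for Ms4a6c, and before-peak replicate 3 stands far above the other tumors for Ms4a4b.

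Of the 8 members, 0 passed the adjusted threshold in either direction by edgeR, as did 0.0% of all genes tested in each direction. DESeq2 called 1 of the 8, Ms4a8a, higher with peak, against 1.41% of all genes tested. At an unadjusted p under 0.05, 3 members were higher with peak (Ms4a8a, Ms4a6c and Ms4a6d) and 0 lower, against 6.12% and 3.38% of all genes. In 2 members, Ms4a8a and Ms4a6c, the groups did not overlap, both higher with peak, which held for 8.13% of all genes, and in 0 members were they apart with lower values, which held for 7.38%. The median log2 fold change of the members was 0.52, beside -0.02 over all genes tested, and 7 of 8 were positive, beside 47.7% of all genes; Ms4a4a, at 0.00, is among the 7, and its sign turns with library size alone or upper quartile scaling. Whether the tumors came from separate animals is not stated, and the p-values then measure no more than the spread among these 6 samples, which may be technical.

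The Ms4a6 members of monocytes and macrophages differed by less. Ms4a6c was at 82.4, 61.1 and 72.9 CPM before the peak and at 128, 115 and 89.6 CPM with it. The groups did not overlap, and edgeR put the log2 fold change at 0.62 (SE 0.16) with an adjusted p of 0.285. Part of that value cannot be assigned to Ms4a6c with certainty: 1088 of its 2050 exonic bases overlap exons of BE692007, a non-coding transcript on the opposite strand, and the libraries carry no strand. BE692007 had 48.3 to 66.6 CPM before the peak and 54.8 to 77.7 CPM with it, for which edgeR put the log2 fold change at 0.25 with an adjusted p of 0.678, and its groups overlapped.

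Ms4a6d, whose protein has been reported to act with the complement receptor Vsig4 in restraining the inflammasome of macrophages, was at 130.4, 101 and 115 CPM before the peak and 187, 194 and 125 CPM with it. With-peak replicate 3 lay below before-peak replicate 1, so the groups overlapped (log2 fold change 0.54, SE 0.18, edgeR adjusted p = 0.397). Ms4a6b was at 48.2, 35.3 and 84.9 CPM before the peak and 71.9, 62.5 and 58.7 CPM with it. Its highest and lowest libraries were both before-peak tumors, and the log2 fold change was 0.20 (SE 0.31, edgeR adjusted p = 0.873).

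Among the Ms4a4 members and Ms4a7, Ms4a4c, a monocyte gene, was at 20.4, 21.6 and 31.6 CPM before the peak and 46.9, 31.3 and 28.3 CPM with it. Before-peak replicate 3 lay above 2 of the with-peak tumors. Its log2 difference was 0.54 (SE 0.24) at an edgeR adjusted p of 0.525, and 0.28 where with-peak replicate 1 was left out. Ms4a7 was at 25.9, 21.3 and 32.0 CPM before the peak and 31.7, 55.8 and 25.3 CPM with it. Its log2 fold change, 0.51 with an SE of 0.30 and an edgeR adjusted p of 0.652, rests on with-peak replicate 2, without which it is 0.11.

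Ms4a4a, the dectin-1 partner, was the flat member. It was at 48.2, 37.1 and 48.1 CPM before the peak and 52.4, 45.2 and 35.7 CPM with it, and its highest and lowest libraries were both with-peak tumors. The means were 44.5 ± 6.37 and 44.4 ± 8.35 CPM (SD, n = 3), which edgeR put at a log2 fold change of 0.00 (SE 0.17) with an adjusted p of 0.999.

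**Figure D2:**
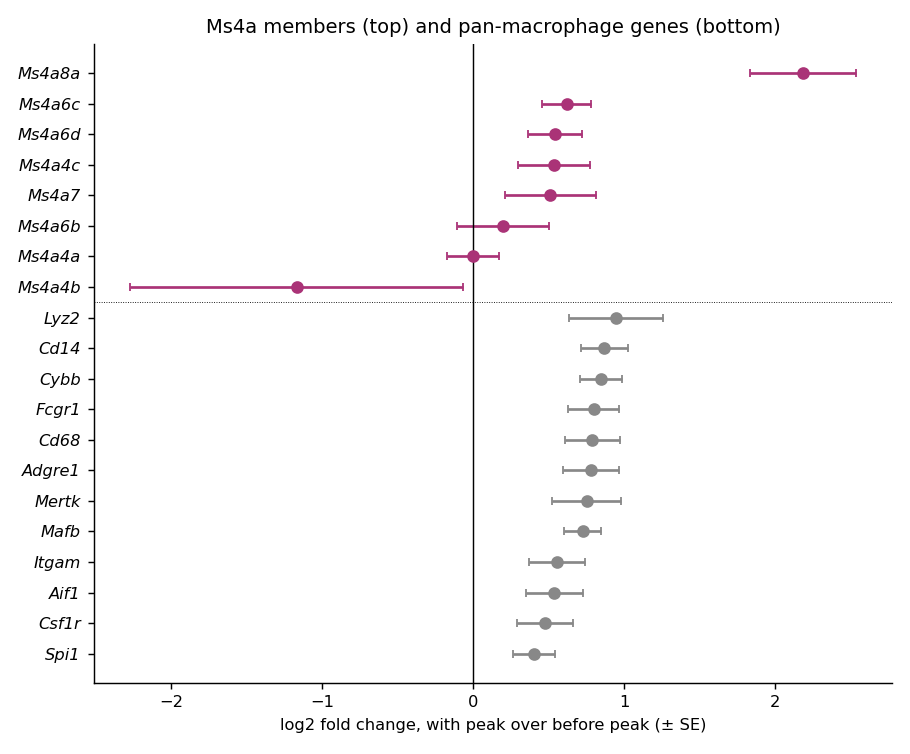
Log2 fold change of with-peak over before-peak tumors (points) with SE (bars) from the edgeR fit, for the 8 Ms4a members above the dotted line and 12 pan-macrophage genes below it. The macrophage genes lie between 0.40 and 0.95, Ms4a8a at 2.19 lies above all of them, and Ms4a4a lies at 0.00.

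Macrophage genes in general were higher in the same tumors. Of 12 pan-macrophage genes, such as Adgre1, Csf1r and Cd68, all were positive with a median of 0.77. All 12 had an unadjusted p under 0.05, against 6.12% of all genes tested that were higher at that threshold. DESeq2, which called 1.41% of all genes higher, called 7 of the 12, and 0 of them passed the adjusted edgeR threshold. Their summed level was 1278 to 2306 CPM before the peak and 2754 to 3735 CPM with it. In tissue RNA, more macrophages and more RNA per macrophage cannot be told apart. Each member was therefore also set against these genes within its own tumor, as its log2 CPM minus their mean log2 CPM, a ratio in which library scaling cancels. Groups were compared by exact permutation (two-sided), which with 3 tumors on each side cannot give a p below 0.1. The permutation p-values printed are unadjusted. Benjamini-Hochberg adjustment over the members gave 0.4 for Ms4a8a and for Ms4a4a and higher values for the others.

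Ms4a8a was higher relative to the macrophage genes too. Its log2 ratio was -5.37, -4.07 and -5.06 before the peak and -3.08, -3.45 and -3.64 with it, a difference of 1.44 (exact permutation p = 0.1). The groups did not overlap in that direction for 0.621% of all genes tested and for 1 of the 8 members. Ms4a4a showed the opposite order, with log2 ratios of -0.52, -0.56 and -0.46 before the peak and -0.94, -1.32 and -1.42 with it, a difference of -0.71 (exact permutation p = 0.1). That order is common, since 65.5% of all genes tested had ratios without overlap and lower with peak. Any gene with a steady level is lower against a set that is higher.

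For the other macrophage members the ratio differed little between groups beside its spread. The difference was -0.09 for Ms4a6c (exact permutation p = 0.5), -0.18 for Ms4a6d (exact permutation p = 0.3), -0.18 for Ms4a4c (exact permutation p = 0.6) and -0.26 for Ms4a7 (exact permutation p = 0.5). For Ms4a6b it was -0.41 (exact permutation p = 0.3). All 5 had overlapping groups, as did Ms4a4b. These differences moved widely when 1 library was left out, from -0.41 to -0.02 for Ms4a4c and from -0.29 to -0.03 for Ms4a6d, nearest to 0 where before-peak replicate 3 was dropped for the former and with-peak replicate 3 for the latter. They ran from -0.51 (without with-peak replicate 2) to -0.07 (without with-peak replicate 3) for Ms4a7 and from -0.60 to -0.10 (without before-peak replicate 3) for Ms4a6b.

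**Figure D3:**
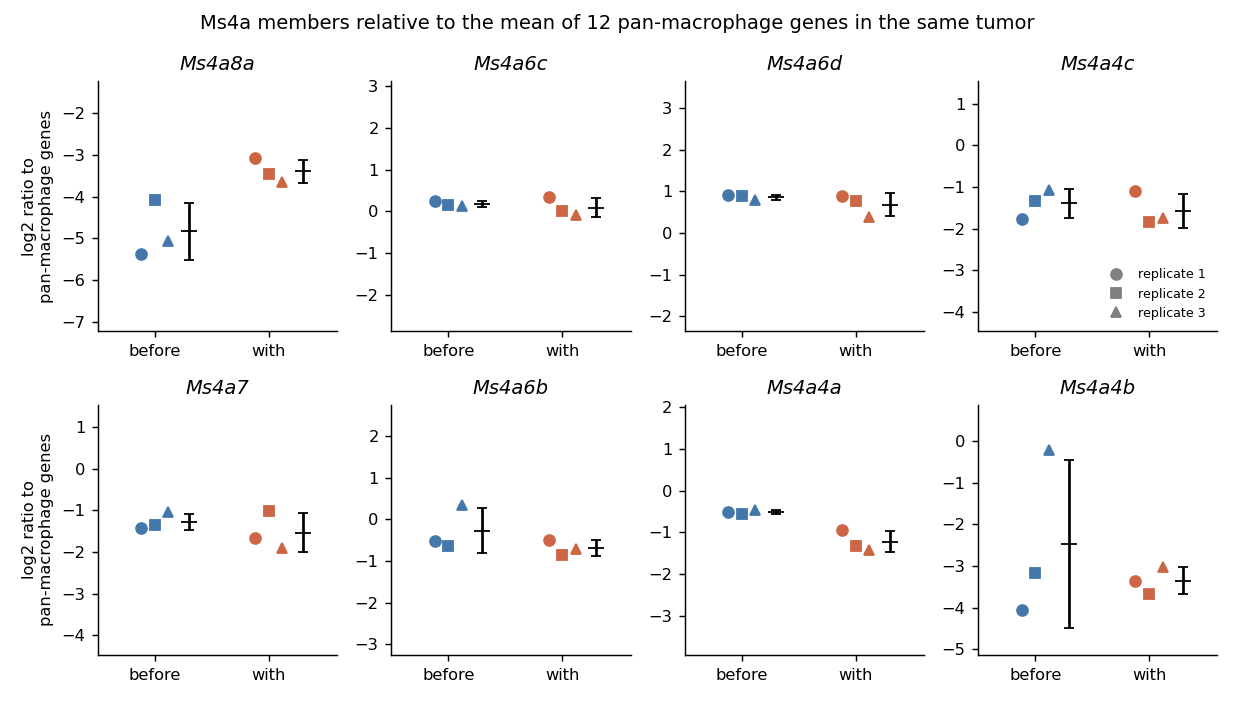
Log2 ratio of each Ms4a member to the mean of 12 pan-macrophage genes in the same tumor, before (blue) and with (orange) the peak; symbols give the replicate, the black bar the mean ± SD, and every panel spans 6 log2 units. Ms4a8a runs from -5.37 to -4.07 before the peak and from -3.64 to -3.08 with it, and Ms4a4a is the only other member whose groups are apart, lower with peak.

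Ms4a4b, a membrane protein of T cells that has been found with the costimulatory receptor GITR, followed another pattern. It was at 4.01, 5.94 and 57.4 CPM before the peak and at 9.59, 8.76 and 11.6 CPM with it. The before-peak group held both the lowest and the highest tumors, so that the log2 fold change, -1.17 with an SE of 1.10 and an edgeR adjusted p of 0.786, is set by 1 library. Without before-peak replicate 3 it turns to 1.00 (unadjusted p = 0.00955, edgeR adjusted p = 0.282).

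The same library was high in lymphocyte genes. The summed level of 18 T and NK cell genes was 28.4, 76.7 and 342 CPM before the peak and 143, 106 and 106 CPM with it, and that of 11 B and plasma cell genes was 36.5, 15.7 and 646 CPM before and 84.6, 92.0 and 159 CPM with it. Of the 17 T and NK genes tested 13 were negative (median -0.58), of the 10 B and plasma genes tested 9 (median -1.94). By edgeR 0 in either list passed, and at an unadjusted p under 0.05 only Gzmb was higher among them, which DESeq2 also called. Ms4a1, the CD20 gene of B cells in the same cluster, was at 2.32, 0.0781 and 84.0 CPM before the peak and 4.34, 2.81 and 9.20 CPM with it. The part of these cells in the member values was not tested.

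Ms4a6b was highest in before-peak replicate 3 as well. Without that library its log2 fold change is 0.62 (unadjusted p = 0.0052, edgeR adjusted p = 0.236), and 6 of the 8 members are higher at an unadjusted p under 0.05, against 7.33% of all genes tested in that fit, with 0 past the adjusted threshold. Ms4a8a has a log2 fold change of 2.08 there (edgeR adjusted p = 0.110). Ms4a4b and Ms4a4c, alike in coding sequence and start window, had their highest libraries in different tumors, before-peak replicate 3 and with-peak replicate 1. Before-peak replicate 3 was nevertheless the highest before-peak tumor for Ms4a4c too, at 31.6 CPM. Without that library the log2 fold change of Ms4a4c is 0.76 (edgeR unadjusted p = 0.0087, adjusted p = 0.276).

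**Figure D4:**
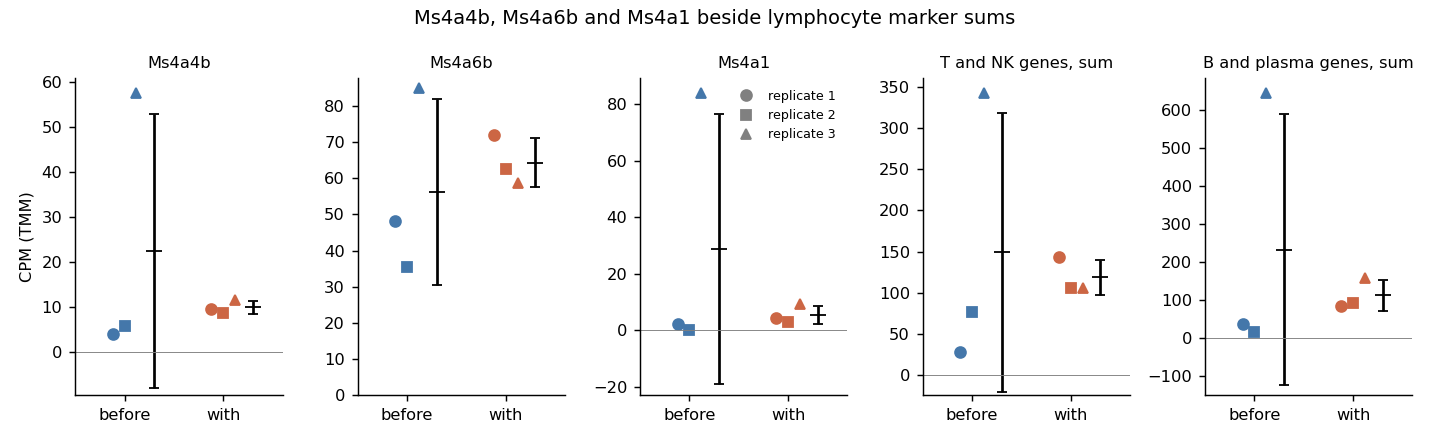
CPM of Ms4a4b, Ms4a6b and Ms4a1 and summed CPM of 18 T and NK cell genes and 11 B and plasma cell genes, before (blue) and with (orange) the peak; symbols give the replicate and the black bar the mean ± SD. Before-peak replicate 3 (blue triangle) is the highest library in every panel, at 57.4 CPM for Ms4a4b and 84.0 CPM for Ms4a1.

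Levels of different members were compared per kilobase of annotated exon. Ms4a6d was highest, with a mean of 81.9 CPM per kilobase over the 6 tumors (range 58.5 to 112), and it lay above the next gene in each of 6 tumors. Ms4a4a followed at 53.2 (42.7 to 62.6) and Ms4a6c at 44.6 (29.8 to 62.6), which overlap each other and change places between groups. The length used for Ms4a6c holds all 2050 exonic bases, of which 1088 overlap exons of BE692007. How reads from that overlap were counted is not stated, so the place of Ms4a6c, also against Ms4a6d, is uncertain. Below a gap in the ranges came Ms4a4c at 17.1 (11.6 to 26.8), Ms4a6b at 13.4 (7.87 to 18.9) and Ms4a7 at 7.19 (4.79 to 12.5), each overlapping the next. Ms4a8a at 3.35 (0.848 to 6.55) and Ms4a4b at 1.85 (0.456 to 6.54) were lowest. Their order differed between groups, with means of 1.20 and 2.56 before the peak, the latter carried by before-peak replicate 3, and 5.49 and 1.14 with it. Both levels depend on the length used, with 5.11 and 3.42 per kilobase of the longest transcript.

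As a share of the 8 members' summed level per kilobase, Ms4a8a made up 0.419%, 1.09% and 0.482% before the peak and 2.25%, 2.09% and 2.12% with it. Ms4a4a made up 27.2% to 28.5% before and 19.8% to 21.6% with it, and Ms4a6c 16.8% to 19.8% and 20.5% to 22.0%. For these 3 members the groups did not overlap in the share, a measure with no counterpart over all genes. Shares within a tumor are tied to each other, so a member with a steady level, such as Ms4a4a, has a lower share where other members are higher. With all annotated exon counted as length, Ms4a6d kept the largest share in every tumor, 31.5% to 41.0%. The shares of all members carry the uncertainty in the Ms4a6c level.

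**Figure D5:**
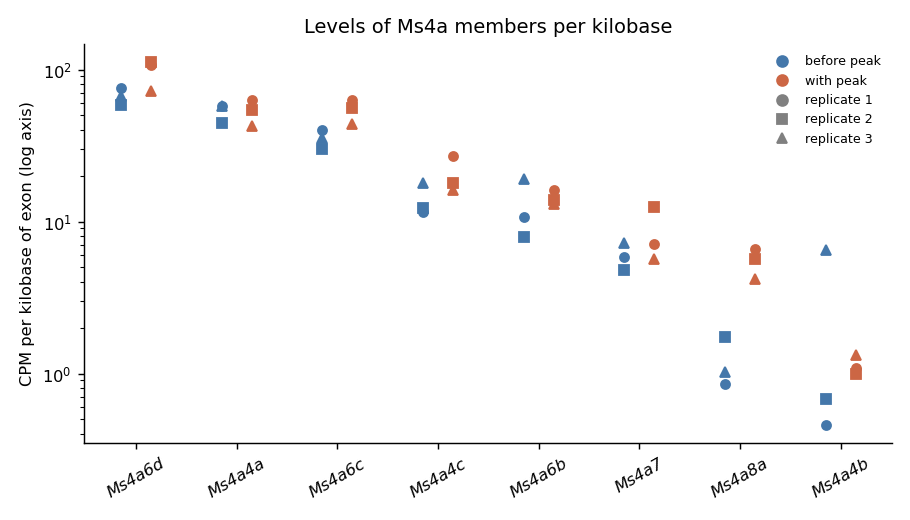
CPM per kilobase of annotated exon (log axis) of the 8 Ms4a members, ordered by their mean, in before-peak (blue) and with-peak (orange) tumors; symbols give the replicate. Ms4a6d, Ms4a4a and Ms4a6c lie above 29.8 in every tumor, and Ms4a8a moves from 0.848 to 1.74 before the peak to 4.21 to 6.55 with it.

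Of the other Ms4a genes and the related Tmem176a and Tmem176b, 5 were tested, of which 1 had an unadjusted p under 0.05 and 0 passed. That gene was Ms4a4d, whose coding sequence was identical to that of Ms4a4b at 83.3% and to that of Ms4a4c at 85.5% of the whole alignment. Ms4a4d was at 4.41 to 5.49 CPM before the peak and 10.4, 16.0 and 6.87 CPM with it. Its log2 difference was 1.16 (SE 0.33) at an edgeR adjusted p of 0.332. Its groups did not overlap. Tmem176a and Tmem176b, ion channel genes of dendritic cells and macrophages, had log2 fold changes of 0.26 and 0.29 and Ms4a14 one of 0.24. Ms4a2 had 2 to 10 counts per library, below the filter.

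Proteins that Ms4a members have been reported to act with form a list of 10 genes, 9 of them positive (median 0.71). The pan-macrophage genes had a similar median, 0.77. By edgeR 6 of the 10 were higher at an unadjusted p under 0.05, against 6.12% of all genes tested, and 0 passed. DESeq2 called 5 higher, against 1.41%. Vsig4 was at 1.52, 1.09 and 3.16 CPM before the peak and 5.67, 8.99 and 5.71 CPM with it, a log2 difference of 1.82 (SE 0.44) at an edgeR adjusted p of 0.245. Clec7a, which encodes dectin-1, was at 28.1, 80.4 and 32.7 CPM before the peak and 134, 175 and 96.7 CPM with it, a log2 difference of 1.52 (SE 0.47) at an edgeR adjusted p of 0.435, whereas its partner Ms4a4a was flat. Trem2, the lipid receptor of macrophages, and its adaptor Tyrobp had log2 fold changes of 1.16 and 0.73, and the Fc receptor Fcgr3 and its gamma chain Fcer1g 0.84 and 0.69. Adam10 and Adam17, the sheddases of TREM2, were at -0.18 and 0.06, Syk at 0.35 and Tnfrsf18, which encodes GITR, at 0.02, none past an unadjusted p of 0.05.

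Genes beside the cluster differed less than Ms4a8a, the member with the largest difference. Within 200 kb of the cluster's ends 9 other genes were tested, with log2 fold changes from -0.76 (Cd6, a surface receptor of T cells) to 0.23 (Stx3). Of these 9, 0 had an unadjusted p under 0.05. Over all genes tested 6.12% were higher and 3.38% lower at that threshold, so few of 9 would be. Inside the cluster, AW112010, an immune-cell transcript annotated as a lincRNA, was at 17.8, 52.0 and 20.9 CPM before the peak and 109, 76.3 and 49.1 CPM with it, a log2 difference of 1.37 (SE 0.52) at an edgeR adjusted p of 0.513. With-peak replicate 3 lay below before-peak replicate 2 for AW112010. Gm8369 had a log2 fold change of -0.80 and was highest in before-peak replicate 3, at 10.6 CPM.

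Markers of other states and cells give the setting of these values. Mature tumor macrophage genes had 15 of 17 tested positive (median 0.68) and 10 at an unadjusted p under 0.05, with Cd5l at a log2 fold change of 4.03 and Gpnmb at 2.62; monocyte genes had 6 of 12 positive (median 0.10), with Chil3 at 2.63 and Plac8 at 1.63. Interferon response genes had 11 of 12 positive (median 0.50), neutrophil genes 9 of 10 (0.67), mast cell genes 5 of 7 (0.24), dendritic cell genes 3 of 9 (-0.48) and carcinoma genes 1 of 8 (-0.30), and 0 genes of these lists passed by edgeR. At an unadjusted p under 0.05, 4 monocyte, 5 neutrophil and 2 interferon genes were higher and 3 carcinoma genes lower. DESeq2 called 6 mature macrophage, 3 monocyte and 1 neutrophil gene higher and 1 carcinoma gene lower. Over all genes tested, 6.12% were higher and 3.38% lower at that unadjusted p, and DESeq2 called 1.41% higher. Among these lists only the mature macrophage genes had summed levels without overlap, 3104 to 4761 CPM before the peak and 5578 to 9303 CPM with it. The neutrophil sum was 417 to 932 CPM before the peak and 555 to 784 CPM with it. Muscle and red cell genes had 8 of 8 positive with a median log2 fold change of 3.07, larger than that of Ms4a8a; 5 had an unadjusted p under 0.05, 0 passed by edgeR and DESeq2 called 3. They had a sum of 94.0 to 280.3 CPM before the peak and 296, 1618 and 1868 CPM with it. Marco of macrophages, Mzb1 of plasma cells and Fcer1a of mast cells were at 0 in at least 1 library, and the part of these cells in the member values was not tested.

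The genes whose log2 CPM ran most like a member over the 6 libraries were taken from 12533 genes with a mean of at least 5 CPM. With so few libraries, very high correlations arise among so many genes, and each profile follows its most extreme tumors. Nearest to Ms4a4b were Ptprc, the leukocyte antigen CD45 (Pearson r of 0.998), Rev3l, Bach2, Kdm5c and Dclre1c, all highest in before-peak replicate 3. Nearest to Ms4a7 were Gxylt2, Tspan6, Cotl1, Sema3g and Sdhaf1 (r from 0.986 to 0.998), all highest in with-peak replicate 2. Nearest to Ms4a6d were Mospd1, Lrpap1, Rdm1 and Apba3 (r from 0.985 to 0.997). Nearest to the mean standardised profile of the 8 members were 1600014C10Rik, Tigd2, 6330537M06Rik, Mylip and Nek9 (r from 0.978 to 0.993). Among the members themselves the closest pair was Ms4a6c with Ms4a6d (r of 0.96).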

How the data were processed

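The deposited table holds raw counts per Ensembl gene, with no normalization by the authors and 1 column per tumor. The submitters' processing notes name FastQC, STAR and mm10; no source used here gives the read counter or its annotation. Per the labels' protocols, libraries were oligo(dT) selected, paired-end and without strand marking. Of 23508 genes, 23479 matched GENCODE M21, and total counts were 10591067 to 14549357 per library, so Ms4a8a before the peak rests on few counts. No library was a duplicate of another of its group (chi-square per degree of freedom 17.1 to 28.9).

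Counts were analysed in R 4.3.3 with edgeR 4.0.16 (TMM, filterByExpr with a minimum count of 10 and total of 15, robust quasi-likelihood test, Benjamini-Hochberg over 16755 genes, threshold 0.05). SE is the size of the log2 fold change over the square root of F. DESeq2 1.42.0 and limma 3.58.1 were alternatives, with other scalings, filters, a replicate block and each library left out. Log2 CPM used a prior count of 2.

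Of the 50-base words in a member's transcripts, 51.4% for Ms4a6c, 8.19% for Ms4a4c, 3.57% for Ms4a6b, 2.54% for Ms4a6d, 2.40% for Ms4a4b, 0.306% for Ms4a7 and 0.0% for Ms4a4a and Ms4a8a occur in another gene, and reads from them could be counted to either. For Ms4a6c 49.6% are shared with the antisense BE692007 and 5.85% with the paralog Ms4a6b; for Ms4a4c 7.73% are shared with Ms4a4b. Coding sequences came from GENCODE M21 and start windows from RefSeq (GRCm38.p6). On counts simulated for 16755 genes, edgeR called 53 of 100 genes changed by a log2 of 1, 81 of 100 changed by 2, and 16 unchanged genes, 10.7% of the 150 called. The simulation drew each gene independently, with no difference in cell content between libraries, so these rates need not hold for the tumors.

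The members, gene lists, alternatives and the rule for named genes were chosen with earlier results of these data known. That rule took all members, tested relatives and partners, the genes with the smallest p-values of each list, the genes nearest in profile and those within 200 kb of the cluster; 1 gene that it takes is not reported here.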

Additional observations from a re-analysis of the deposited data

How the results depend on the processing

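For Ms4a8a, Ms4a6c, Ms4a6d, Ms4a4c and Ms4a7 the log2 fold change was positive in all 16 other fits, and for Ms4a6b in 15. Ms4a8a ranged from 1.99 to 2.55, with an edgeR adjusted p of 0.056 to 0.311 when 1 library was left out, and passed the threshold with no filter on low counts (log2 fold change 2.19, adjusted p = 0.0421) and by DESeq2 (2.19, adjusted p = 1.56e-05); the cause was not tested. Its difference in ratio to macrophage genes was 1.18 to 1.83 with 1 library left out. Over all genes, 26 were called higher and 3 lower with no filter, 236 and 24 by DESeq2 and 32 and 3 at an adjusted p under 0.1, each including 1 member higher, Ms4a8a; the other scalings, the filter of 1 CPM, limma-voom and the fit without robust estimation called 0. Leaving out 1 library gave 0 to 17 genes higher, 0 lower and 0 members, with 17, 13 and 9 where before-peak replicates 2 and 3 and with-peak replicate 1 were dropped. It gave 2 to 6 members higher at an unadjusted p under 0.05, 6 where before-peak replicate 3 was dropped (1268 of all 17287 genes) and 5 where with-peak replicate 3 was dropped (1003 of 17258).

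Ms4a4a, near 0, turned to a log2 fold change of -0.058 with library size alone, -0.0087 with upper quartile scaling, -0.0027 with no filter, -0.054 by limma-voom with sample weights and -0.0062 with the replicate block. With 1 library left out it was -0.13 to 0.14, below 0 where before-peak replicate 2, with-peak replicate 1 or with-peak replicate 2 was dropped. Ms4a4b turned to 0.11 by limma-voom with sample weights and to 1.00 without before-peak replicate 3, where its ratio to macrophage genes turned to 0.26; with 1 library left out these were -1.67 to 1.00 and -1.66 to 0.26. Dropping before-peak replicate 2 turned Ms4a6b to -0.048 (range over dropped libraries -0.048 to 0.62), and dropping with-peak replicate 3 turned the ratio of Ms4a6c to 0.0040 (range -0.22 to 0.0040). DESeq2 gave no adjusted p for Ms4a4b. With library size alone 768 genes were higher and 1020 lower at an unadjusted p under 0.05, against 1025 and 567 with TMM.

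Replicate numbers are not said to pair tumors, and the correlation of deviations from the group mean between tumors sharing a number was -0.08, -0.15 and 0.02. With the replicate block 1 gene was called higher and 0 lower, none of them a member. The low counts of Ms4a8a before the peak, 19 to 40, limit the precision of its fold change.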
